A study of Mus musculus with 16 samples.

Results

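The genes described here are 8 transcription factors of the basic helix-loop-helix (bHLH) class: the neurogenins Neurog1, Neurog2 and Neurog3, the neuronal differentiation factors Neurod1 and Neurod4, the proneural factor Atoh1, and the Olig genes Olig1 and Olig2. They were chosen by symbol, and each of the 8 had 1 row among the 27807 genes of the table. These members and the lists of other genes below were chosen with earlier results of these data known. Polyadenylated RNA was measured in mouse embryonic stem (ES) cells and in embryoid bodies, the floating aggregates that ES cells form as they differentiate. Cells labelled Taf4+/+ (WT) or Taf4-/- (KO), the second lacking both working copies of a TFIID subunit gene, were sampled as ES cells (ES), as embryoid bodies before retinoic acid was added (EB4), a day after its addition (EB5) and later in the retinoic acid treatment (EB8), all before the plating step of a protocol for glutamatergic neurons. These 4 stages and both genotypes made 8 groups of 2 libraries each, 16 in all. Per the design text there were 2 lines of each genotype, and per the methods of the study these came from blastocysts of heterozygous crosses and were grown as ES cells on mitotically inactive embryonic fibroblasts with LIF. The null allele, of which the KO lines have 2 copies, lacks internal exons.

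The values, called normalised counts, are reads per gene scaled by the size factor of their library. Libraries held 22442118 to 40711826 reads, and all ES libraries (at least 32631020) were deeper than all embryoid body libraries (at most 27685306). Taf4a itself was counted over the whole gene at 1591 to 1959.6 normalised counts in the 8 WT libraries and 1973 to 2400 in the 8 KO libraries, so this count does not check the deletion and the genotypes are those of the labels. WT ES replicate 2 stood apart from the other WT libraries, with the Y-linked gene Ddx3y at 0 against 174 to 572 in the 6 WT embryoid body libraries, and with Xist at 550.1 against 15.8 to 52.5. In the 8 KO libraries Ddx3y was at 0 to 35.9 and Xist at 38.2 to 3001, so at the embryoid body stages Ddx3y was higher in every WT library than in any KO library, and this difference between the lines cannot be told apart from the genotype. Of the comparisons below WT ES replicate 2 entered KO against WT in ES cells, and it added to the estimate of spread that all comparisons share.

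Proneural bHLH factors bind E-box DNA as dimers with ubiquitous E proteins and commit progenitors to becoming neurons. The neurogenins act early, in dividing progenitors, and switch on Neurod genes, Notch ligands and cell cycle exit, while the Hes and Id proteins hold progenitors back. Olig2 marks the progenitors that give motor neurons and later oligodendrocytes in the ventral spinal cord, Olig1 is its neighbour and acts mainly in oligodendrocytes, Atoh1 makes dorsal interneurons and hair cells, and Neurog3 is best known from pancreatic endocrine cells.

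Of the neurogenins and Neurod genes, all but Neurog3 had their highest means in WT embryoid bodies at EB8. Neurog1, Neurog2, Neurod1 and Neurod4 were lower in KO than WT at EB8, with log2 differences of -4.53, -7.26, -5.30 and -7.65, where 12.5% of all tested genes were called lower. The libraries of the genotypes did not overlap in any of these genes, a pattern that 33.5% of all tested genes had in this direction. Neurog2 and Neurod4 were tested only because of their WT EB8 values, so for them both results are tied to their being tested. The Olig genes had their highest mean levels in ES cells of both genotypes. At EB5 both KO libraries were above both WT libraries in each Olig gene, a pattern that 26.7% of all tested genes had. Neither Olig gene was called there (limma adjusted p = 0.199 for Olig1 and 0.286 for Olig2). Neurog3 and Atoh1 did not exceed 29.1 and 17.0 normalised counts in any library.

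**Figure D1:**
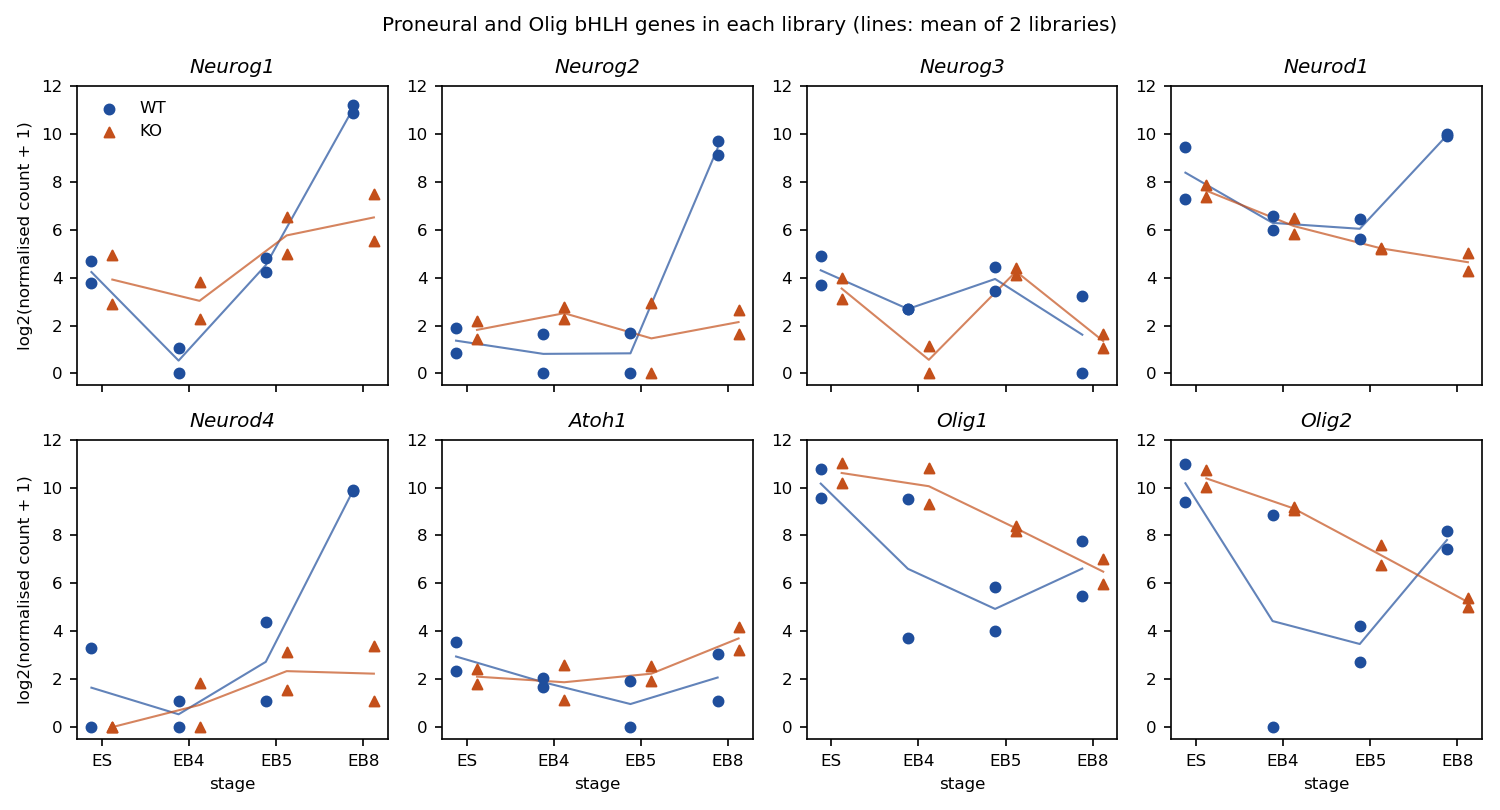
Each panel plots a gene in all 16 libraries, as log2(normalised count + 1) on the y axis against stage on the x axis, with WT as circles, KO as triangles and lines through the means of 2 libraries. The WT points of Neurog1, Neurog2, Neurod1 and Neurod4 lie above the KO points at EB8, and the highest Olig1 and Olig2 points are those of ES cells, apart from a KO library of Olig1 at EB4.

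Gene positions are from the GENCODE annotation of NCBI37 (mm9). Neurog1 lies on chromosome 13 (56351866 to 56353524, minus strand), Neurog2 on chromosome 3 (127336054 to 127338549, plus strand), and Neurog3 on chromosome 10 (61595838 to 61597511, plus strand). Neurod1 lies on chromosome 2 (79292678 to 79296908, minus strand), Neurod4 on chromosome 10 (129705209 to 129717296, minus strand) and Atoh1 on chromosome 6 (64679140 to 64681227, plus strand). Olig2 (91225795 to 91228922) and Olig1 (91270014 to 91272184) lie on the plus strand of chromosome 16, with 41.1 kb between them. These are compact genes of 1 or 2 exon blocks, with 1.54 to 3.34 kb of exon.

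The stretch before the transcription start is shown for 3 of the 4 genes that rose in WT from EB5 to EB8 and for Olig2, which had another course. Each line gives the last 250 bases before the RefSeq start on build GRCm38.p6, 5′ to 3′ along the gene, which is another build than that of the gene positions above. Capitals mark matches to 3 motifs searched on both strands with overlaps allowed, namely the E-box CANNTG, the N-box CACNAG and the TATA motif TATAAA, which are present in 66.2%, 36.7% and 12.4% of 32851 promoters of the same length.
Neurog1 chr13:56252181-56252430, minus strand: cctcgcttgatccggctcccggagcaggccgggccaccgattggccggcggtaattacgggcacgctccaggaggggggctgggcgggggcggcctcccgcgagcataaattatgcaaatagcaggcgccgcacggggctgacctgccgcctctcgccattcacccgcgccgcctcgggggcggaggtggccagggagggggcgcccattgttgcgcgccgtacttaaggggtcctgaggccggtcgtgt
Neurod1 chr2:79456637-79456886, minus strand: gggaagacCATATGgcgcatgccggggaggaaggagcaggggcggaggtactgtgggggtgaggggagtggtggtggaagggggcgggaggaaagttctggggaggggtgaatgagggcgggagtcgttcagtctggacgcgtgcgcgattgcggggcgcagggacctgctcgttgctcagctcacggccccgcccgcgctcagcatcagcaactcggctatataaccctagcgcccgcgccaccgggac
Neurod4 chr10:130280255-130280504, minus strand: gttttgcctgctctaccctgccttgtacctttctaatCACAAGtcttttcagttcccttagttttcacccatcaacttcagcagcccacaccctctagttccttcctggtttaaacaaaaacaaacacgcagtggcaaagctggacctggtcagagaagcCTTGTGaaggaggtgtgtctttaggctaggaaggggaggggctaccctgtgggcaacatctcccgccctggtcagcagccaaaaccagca
Olig2 chr16:91225300-91225549, plus strand: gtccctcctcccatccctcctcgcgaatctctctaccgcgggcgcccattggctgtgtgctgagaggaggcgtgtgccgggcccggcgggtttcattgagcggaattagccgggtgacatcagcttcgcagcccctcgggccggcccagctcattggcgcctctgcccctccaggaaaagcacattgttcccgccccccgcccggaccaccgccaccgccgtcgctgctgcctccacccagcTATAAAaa

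The Neurod1 stretch held an E-box whose first base was 242 bases before the start, and the Neurod4 stretch held N-box matches at 213 and 90 bases before it. Olig2 had a TATA match 8 bases before its start, and the Neurog1 stretch held none of the 3 motifs. The Neurog1, Neurod1 and Olig2 stretches were rich in G and C (71.2%, 67.6% and 66.8%, against a median of 52.4% over all promoters), while that of Neurod4 was at 51.2%. The matches are a description of letters in this window and no binding was measured.

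Neurog1 was the most abundant member of WT EB8. In WT, Neurog1 was at 24.6 and 12.8 normalised counts in the ES libraries, 1.1 and 0 at EB4, 27.3 and 17.6 at EB5, and 1896.5 and 2343 at EB8. In KO it was at 29.9 and 6.4 in ES cells, 12.9 and 3.8 at EB4, 91.0 and 31.0 at EB5, and 177 and 45.8 at EB8. Both KO libraries lay below both WT libraries at EB8 and above both of them at EB4 and EB5, and the ES libraries overlapped. Ordered by mean, WT EB8 came first and stood clear of all other groups, KO EB8 and KO EB5 followed and overlapped, then came WT EB5 and the ES groups, which overlapped, and the EB4 groups were lowest, with a KO EB4 library inside the ES range.

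Neurog2 was at 2.7 and 0.8 normalised counts in WT ES cells, 0 and 2.1 at EB4, 0 and 2.2 at EB5, and 831 and 553 at EB8. The KO libraries held 1.7 and 3.6 in ES cells, 5.8 and 3.8 at EB4, 6.6 and 0 at EB5, and 5.3 and 2.1 at EB8. WT EB8 was thus the only group above 10, and the libraries of the other 7 groups lay between 0 and 6.6, with those of KO EB4 above those of WT EB4. Over the 2 libraries of a group there were 1313 reads in WT EB8 against 7 in KO EB8, a ratio of 187 (95% exact interval 90.3 to 465, counting error only).

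Neurog3 was at 29.1 and 12.0 normalised counts in WT ES cells, 5.5 and 5.4 at EB4, 20.7 and 9.9 at EB5, and 8.4 and 0 at EB8. In KO the values were 7.5 and 15.0 in ES cells, 1.2 and 0 at EB4, 19.9 and 16.5 at EB5, and 1.1 and 2.1 at EB8. Its libraries were higher at EB5 than at EB4 in both genotypes without overlap, and the genotypes overlapped at each stage except EB4, where KO was lower. Its mean of 9.63 over the 16 libraries was under the limit of 10 normalised counts used for testing. In a fit of all 27807 genes the difference between EB5 and EB4 in KO was 3.70 ± 0.94 on the log2 scale (SE, limma adjusted p = 0.0941). Of its exon bases, 273 (17.7%) are shared with the antisense gene 2010107G23Rik, which was at 120.1 to 443 normalised counts, and without strand the reads of the genes cannot be told apart there.

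Neurod1 had the most ES cell reads of the proneural genes, 972 over the WT and 527 over the KO libraries. WT values were 706 and 156 normalised counts in ES cells, 95.3 and 62.2 at EB4, 86.6 and 48.3 at EB5, and 1012 and 949.7 at EB8. KO values were 166 and 234 in ES cells, 56.1 and 88.1 at EB4, 36.0 and 36.8 at EB5, and 31.7 and 18.1 at EB8. WT EB8 stood clear at the top, the ES groups followed and overlapped, and the EB4 groups and WT EB5 overlapped below them. KO EB5 and then KO EB8 were lowest. KO lay below WT without overlap at EB5 and EB8 and overlapped it at ES and EB4. Of the Neurod1 exon bases, 7.37% are shared with Cerkl on the same strand and 5.64% with the antisense transcript Gm17325, and these were at no more than 31.8 normalised counts in any library.

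Neurod4 was at 0 and 8.8 normalised counts in WT ES cells, 0 and 1.1 at EB4, 19.8 and 1.1 at EB5, and 922 and 944 at EB8. The KO libraries held 0 and 0 in ES cells, 0 and 2.6 at EB4, 1.9 and 7.8 at EB5, and 9.5 and 1.1 at EB8. As with Neurog2, WT EB8 stood alone, and at every earlier stage the genotypes overlapped. WT EB8 held 1770 reads against 10 in KO EB8, a ratio of 176 (95% exact interval 95.5 to 368).

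Atoh1 was at 10.9 and 4.0 normalised counts in WT ES cells, 2.2 and 3.2 at EB4, 2.8 and 0 at EB5, and 1.1 and 7.4 at EB8. KO values were 2.5 and 4.3 in ES cells, 1.2 and 5.1 at EB4, 2.8 and 4.8 at EB5, and 8.4 and 17.0 at EB8. KO EB8 had the highest mean, with both libraries above both WT EB8 libraries and 24 reads against 8, a ratio of 3.02 (95% exact interval 1.31 to 7.77, counting error only). This gene was not tested in the main fit (mean 4.86), and in the fit of all genes the difference at EB8 was 1.65 ± 0.88 (SE, limma adjusted p = 0.269).

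Both Olig genes had their highest means in ES cells. Olig1 was at 1740.2 and 757 normalised counts in WT ES cells, 12.1 and 726 at EB4, 15.1 and 57.1 at EB5, and 43.1 and 218 at EB8. In KO, Olig1 was at 2114 and 1153 in ES cells, 1789.8 and 633 at EB4, 292 and 338 at EB5, and 128 and 61.8 at EB8. KO was above WT without overlap at EB5, and the genotypes overlapped at ES, EB4 and EB8. By mean the ES groups and KO EB4 came first and overlapped, KO EB5 stood below them, and the EB8 groups, which overlapped, and WT EB5 were lowest. WT EB4 spanned most of this range.

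Olig2 also had its highest means in ES cells. WT libraries held 2011 and 669 normalised counts in ES cells, 0 and 462 at EB4, 5.6 and 17.6 at EB5, and 173 and 289 at EB8. KO libraries held 1691 and 1056 in ES cells, 537 and 583 at EB4, 107 and 195 at EB5, and 31.7 and 41.5 at EB8. In KO each stage lay below the stage before it without overlap. At EB8 both WT libraries were above both KO libraries and above both WT EB5 libraries. At EB4 and EB5 both KO libraries were above both WT libraries.

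The WT EB4 libraries did not resemble each other in the Olig pair. Replicate 1 had 12.1 for Olig1 and 0 for Olig2, and 3 reads would be 3.29 normalised counts in that library, while replicate 2 had 726 and 462, near the KO libraries. Ratios of the higher to the lower library in the same group were 60.2 for Olig1 at WT EB4 and at most 5.07 for Olig1 elsewhere. Neurod1 was at 95.3 and 62.2 in the same libraries. Over the same pair of libraries, the summed pluripotency markers spanned 22952 to 43140 normalised counts and the mesoderm markers 282 to 993, and their part in the Olig difference was not tested.

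**Figure D2:**
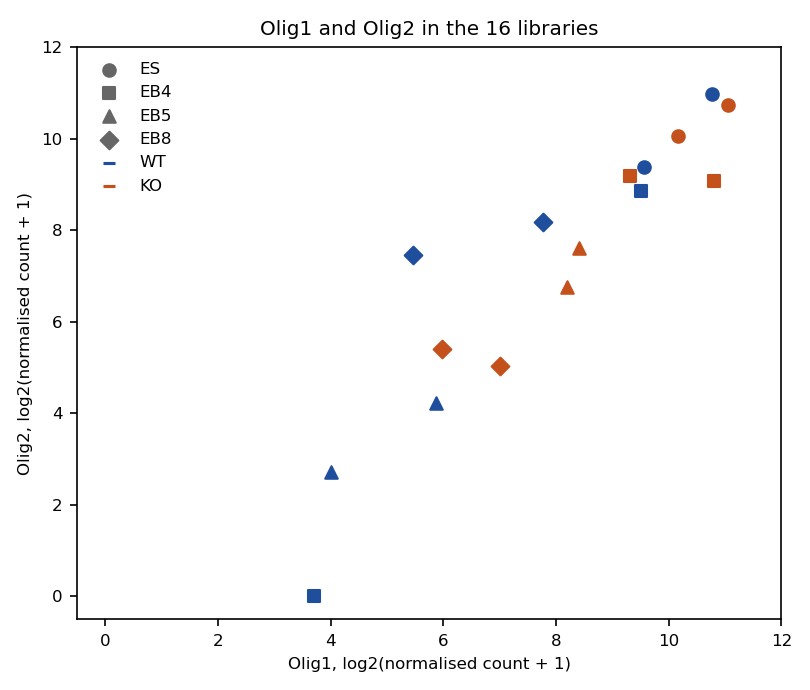
Olig2 is plotted against Olig1 in the 16 libraries, both as log2(normalised count + 1), with WT in blue, KO in orange and a marker shape per stage. The libraries lie along a rising band, from WT EB4 replicate 1 at the lower left to the ES libraries at the upper right, and the WT EB8 libraries lie above it.

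Olig1 and Olig2 varied together over the libraries (Pearson r = 0.92, Spearman rho = 0.91, 16 libraries from 8 groups, given as a description because the libraries share stages and lines). Per kilobase of exon, the level of Olig2 relative to Olig1 was 0.71 to 1.03 in the 4 ES libraries and 0.27 to 0.33 in the WT EB5 libraries. At EB8 the same ratio was 3.59 and 1.18 in WT and 0.22 and 0.60 in KO, so that Olig2 exceeded Olig1 in WT EB8 and not in KO EB8. The expressed genes next to the pair had another course. Ifnar2, an interferon receptor gene on the Olig1 side, was at 148 to 369 normalised counts in all libraries, and Il10rb, an interleukin receptor gene beyond it, at 22.2 to 152.

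Levels of different genes were compared per kilobase of exon. In WT EB8 the means were 1278 normalised counts per kb for Neurog1, 359 for Neurod1, 311 for Neurog2, 279 for Neurod4, 94.9 for Olig2, 60.1 for Olig1, 2.73 for Neurog3 and 2.03 for Atoh1. In KO EB8 Neurog1 was again first at 67.2 and Olig1 second at 43.6, followed by Olig2 at 15.0 and Neurod1 at 9.12. The per kb values of Neurog1 and Olig1 overlapped between the KO EB8 libraries, and in WT EB8 those of Neurog2 overlapped those of Neurod1 and of Neurod4. In WT ES cells the leading means were 575 for Olig1, 549.7 for Olig2 and 158 for Neurod1, and the next was Neurog3 at 13.3.

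**Figure D3:**
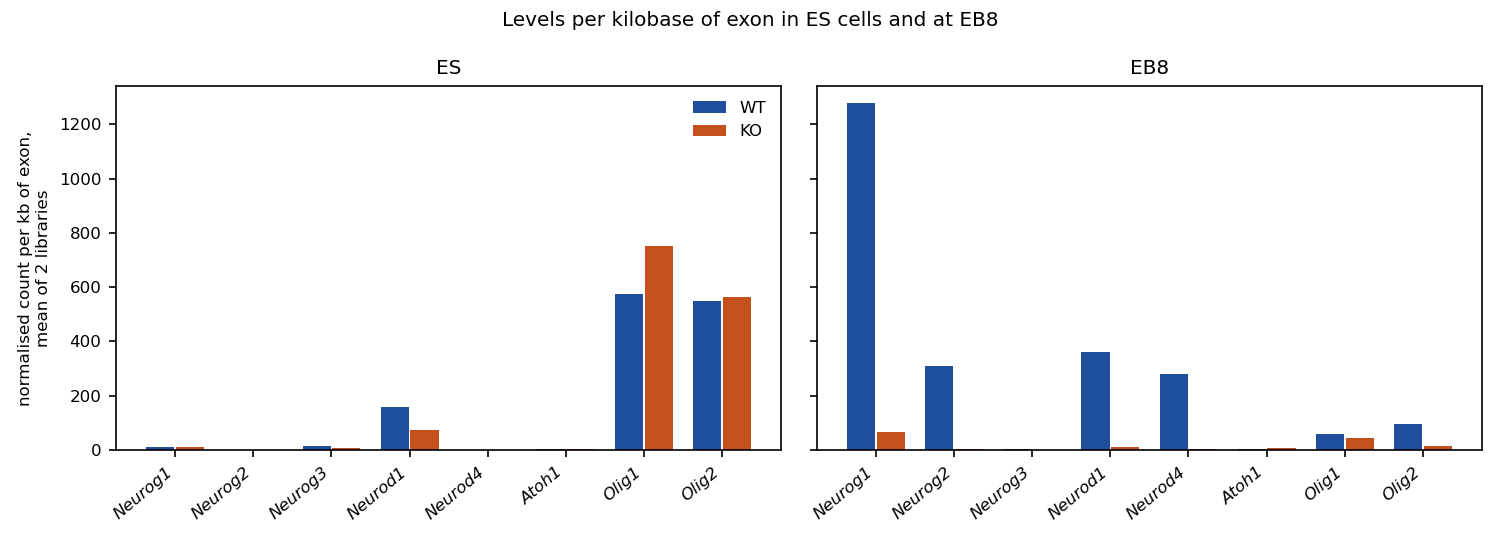
Bars give the mean of 2 libraries in normalised counts per kilobase of exon for each gene, in ES cells and at EB8, with WT in blue and KO in orange. The tall bars are those of Olig1 and Olig2 in ES cells of both genotypes and of Neurog1, Neurod1, Neurog2 and Neurod4 in WT at EB8.

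KO was compared with WT at each stage by limma on log2(normalised count + 1), in a single fit of the 16124 genes whose normalised count averaged at least 10 over the libraries, with Benjamini-Hochberg adjustment over those genes and a threshold of 0.05. Of the 8 genes, 6 were tested. Neurog2 and Neurod4 entered only through WT EB8, with means of 2.63 and 3.82 over the other 7 groups, so their difference at that stage is tied to their being tested, while Neurog1, Neurod1, Olig1 and Olig2 passed without their highest group. In bulk RNA, fewer cells that express a gene and less RNA per cell cannot be told apart.

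At EB8, 4 of the 6 tested genes were lower in KO, where 12.5% of all tested genes were called lower. Neurog1 and Neurod1 are 2 of the 4 genes that passed the filter without their highest group. The KO minus WT difference was -4.53 ± 0.86 for Neurog1 (SE, limma adjusted p = 0.00307) and -5.30 ± 0.59 for Neurod1 (limma adjusted p = 0.000141). It was -7.26 ± 0.99 for Neurog2 (limma adjusted p = 0.000452) and -7.65 ± 1.29 for Neurod4 (limma adjusted p = 0.0015). The KO minus WT difference of Olig2 was -2.59 ± 1.88 (limma adjusted p = 0.349, and 0.0152 in a fit of these groups alone). That of Olig1 was -0.13 ± 1.41 (limma adjusted p = 0.962), and 0.012 with upper-quartile rescaling.

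At the other stages no tested member passed. In ES cells 0 of 6 were called, where 0% of all tested genes were called, 0 members had an unadjusted p under 0.05, and edgeR and DESeq2 called 0 members. The differences there were -1.64 ± 1.29 for Neurod4 and between -0.75 and 0.44 for the other 5, and without WT ES replicate 2 they were -1.84 for Neurod1 and between -0.76 and 0 for the other 5, with 0 members called. At EB4 0 of 6 were called against 6.12% of all genes, with 3 members under an unadjusted p of 0.05, and 0 were called by edgeR and by DESeq2. At EB5 0 of 6 were called against 4.34% of all genes, with 1 member under an unadjusted p of 0.05 and 0 called by edgeR and DESeq2.

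On the log2(normalised count + 1) scale the Olig genes had larger differences at EB4 and EB5 than the other 4 tested members, above WT in KO. Olig2 differed by 4.70 ± 1.88 at EB4 (limma adjusted p = 0.158) and by 3.71 ± 1.88 at EB5 (limma adjusted p = 0.286). Olig1 differed by 3.45 ± 1.41 at EB4 (limma adjusted p = 0.168) and by 3.37 ± 1.41 at EB5 (limma adjusted p = 0.199). The EB4 values depended on the tool. In edgeR on the recovered reads the EB4 difference was 1.28 for Olig2 and 1.72 for Olig1, below those of Neurog1 (3.69) and Neurog2 (2.05), and DESeq2 gave 1.28 and 1.71 for the Olig genes. They also turned on which WT library was kept. Without WT EB4 replicate 2 the differences were 6.35 for Olig1 (limma adjusted p = 0.0198) and 9.13 for Olig2 (limma adjusted p = 0.000965), both past the threshold. Leaving out WT EB4 replicate 1 gave 0.55 and 0.28, the lowest values over the 4 libraries left out in turn. Neurog1 was above WT in KO by 2.50 ± 0.86 at EB4 (limma adjusted p = 0.106) and by 1.24 ± 0.86 at EB5 (limma adjusted p = 0.45). With the replicate number as a block the EB4 difference had a limma adjusted p of 0.024. That block pairs WT and KO libraries by number, which the labels do not tie together. The deviations of same-numbered libraries correlated at -0.06 between genotypes at EB4. Over all tested genes, the libraries of KO lay wholly above those of WT in 25.3% at EB4 and 26.7% at EB5. The members with this pattern were Neurog1, Neurog2 and Olig2 at EB4 and Neurog1, Olig1 and Olig2 at EB5, which is 3 of 6 at each stage.

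**Figure D4:**
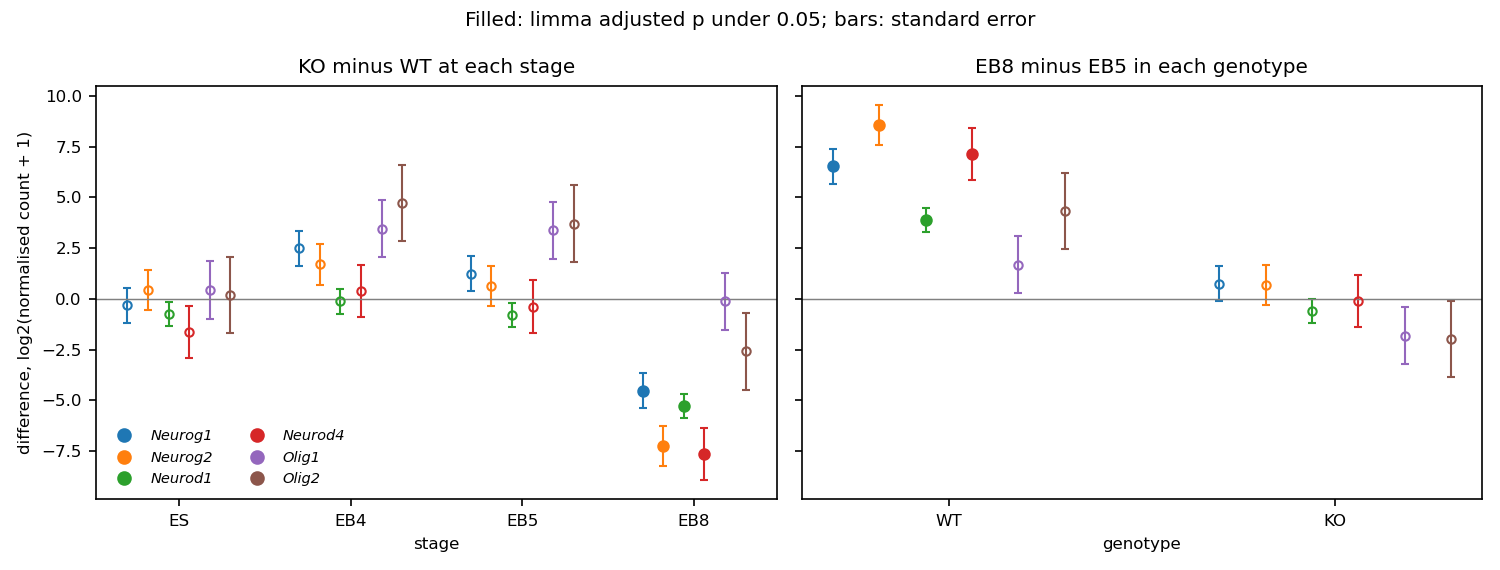
The left panel plots KO minus WT at each stage and the right panel EB8 minus EB5 in each genotype for the 6 tested genes, in log2 units with standard errors, and filled points passed a limma adjusted p of 0.05. The filled points are Neurog1, Neurog2, Neurod1 and Neurod4, below 0 at EB8 on the left and above 0 in WT on the right, and no KO step is filled.

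The steps under retinoic acid were compared next within each genotype. From EB5 to EB8 in WT, 4 of the 6 tested genes rose, where 5.82% of all genes were called higher. Neurog2 rose by 8.57 ± 0.99 (limma adjusted p = 0.000317) and Neurod4 by 7.15 ± 1.29 (limma adjusted p = 0.0047). Neurog2 and Neurod4 were tested only because of their WT EB8 values, so this step is tied to their being tested. Neurog1, which like Neurod1 passed the filter without WT EB8, rose by 6.52 ± 0.86 (limma adjusted p = 0.000752) and Neurod1 by 3.90 ± 0.59 (limma adjusted p = 0.0018). The Olig2 step was 4.34 ± 1.88 (limma adjusted p = 0.174) and the Olig1 step 1.69 ± 1.41 (limma adjusted p = 0.519).

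In KO over the same interval 0 of 6 were called, where 0.738% of all genes were, with 0 members under an unadjusted p of 0.05 and 0 called by edgeR and DESeq2. The KO steps were 0.75 ± 0.86 for Neurog1, 0.68 ± 0.99 for Neurog2, -0.58 ± 0.59 for Neurod1 and -0.11 ± 1.29 for Neurod4. Those of the Olig genes were -1.81 ± 1.41 for Olig1 and -1.97 ± 1.88 for Olig2.

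The difference of the steps itself was tested as an interaction term, KO step minus WT step. From EB5 to EB8 it was called for 2 of 6 genes, where 0.682% of all genes were called lower. These were Neurog2 at -7.89 ± 1.41 (limma adjusted p = 0.0258), again tied to its being tested, and Neurod1 at -4.48 ± 0.84 (limma adjusted p = 0.0309). Neurog1 was at -5.77 ± 1.22 (limma adjusted p = 0.0538), and it passed with the replicate number as a block (0.0106) or as a block within each genotype (0.00339). Neurod4 was at -7.26 ± 1.83 (limma adjusted p = 0.111), Olig2 at -6.30 ± 2.65 (limma adjusted p = 0.447) and Olig1 at -3.50 ± 2.00 (limma adjusted p = 0.669). Leaving out any of the 8 libraries behind it took the call from Neurod1 (limma adjusted p 0.0536 to 0.125), and 6 of the 8 took it from Neurog2 (limma adjusted p 0.025 to 0.104).

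In the first day of retinoic acid, Neurog1 was the only one of the 6 called. It rose in WT by 3.98 ± 0.86 from EB4 to EB5 (limma adjusted p = 0.0227), where 2.59% of all genes were called higher. In KO the difference was 2.73 ± 0.86 (limma adjusted p = 0.128), and it passed with the replicate number as a block (0.0264) or as a block within each genotype (0.00812). There 0 of 6 members were called against 2.51% of all genes, with 1 member under an unadjusted p of 0.05, 0 called by edgeR and 1, Neurog1, called by DESeq2. WT EB4 held 1 read of Neurog1 and WT EB5 held 45, and the WT call was lost without any of the 4 libraries (limma adjusted p 0.0643 to 0.126). The difference between the genotypes' steps was -1.25 ± 1.22 for Neurog1 (limma adjusted p = 1), and 0 of 6 members and 0% of all genes were called, with 0 members under an unadjusted p of 0.05 and 0 called by edgeR and DESeq2. Without WT EB4 replicate 1 the steps of the Olig genes from EB4 to EB5 in WT were -4.57 for Olig1 (limma adjusted p = 0.0493) and -5.38 for Olig2 (limma adjusted p = 0.00312), and without replicate 2 the Olig2 step was 3.47 (limma adjusted p = 0.0261).

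The genes most like each member were taken as the 3 with the highest Pearson r of log2(normalised count + 1) over the 16 libraries, which share lines and stages. For Neurog1 these included Uncx (0.94) and Adamtsl2 (0.91). Neurog2 was most like RP23-71K9.1 (0.95), Gcnt4 (0.95) and St18 (0.95), and Neurod4 most like Ddhd1 (0.95), Otp (0.94) and Exph5 (0.93). Both members averaged under 10 outside WT EB8 (2.63 and 3.82), so their r values set that group against values near the floor. Neurod1 was most like Cs (0.94), which encodes citrate synthase, Hes6 (0.91), a Hes family gene that promotes neurogenesis, and Cyth2 (0.90). Olig1 was most like Gadd45a (0.93), Atf4 (0.91) and Nod1 (0.89), of which Gadd45a and Atf4 are stress response genes, and Olig2 most like BC046331 (0.87), 4930579G24Rik (0.87) and Sec11a (0.86). Among the members, r was 0.79 between Neurog1 and Neurog2, 0.81 between Neurog1 and Neurod4, and 0.42 between Neurog1 and Neurod1. Spearman rho was lower, at 0.43, 0.56 and -0.05. How far the r values rest on the WT EB8 libraries was not tested.

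Other neural bHLH genes were counted in the same comparisons. Of 12 listed genes, 10 had a row and 8 were tested, and 7 of the 8 were lower in KO at EB8, where 12.5% of all tested genes were, with a median of -4.73 against -0.029 over all tested genes. Nhlh2, a bHLH gene of newborn neurons, was at 3176 and 3697 normalised counts in the WT EB8 libraries against 51.7 and 9.6 in those of KO (log2 difference -7.18). Nhlh1 differed by -6.14 and Bhlhe23 by -5.71, with limma adjusted p-values of 0.00197 and 0.000665. Nhlh1 and Ptf1a averaged under 10 outside WT EB8, so like Neurog2 they were tested only through that group. Their place in the EB8 count and in the count of WT rises below is tied to their being tested. At ES, EB4 and EB5, 0 of the 8 passed in limma and in edgeR, with 1, 2 and 1 under an unadjusted p of 0.05, and DESeq2 called 1 at EB5. From EB5 to EB8, 5 of the 8 rose in WT, against 5.82% of all tested genes. In KO 0 rose or fell in limma and in edgeR, with 2 under an unadjusted p of 0.05 and 1 called by DESeq2.

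The E proteins, the dimer partners of the proneural factors, were expressed in every library. Tcf12 (-1.02, limma adjusted p = 0.0043) and Tcf4 (-1.67, limma adjusted p = 0.000425) were lower in KO at EB8, and Tcf3 differed by -0.90 (limma adjusted p = 0.0594). Summed over the 3 genes, the range was 20226 to 22438 normalised counts in WT EB8, against 9531 to 10992 in KO EB8. Tcf4 was also lower in KO at EB5 (-0.90, limma adjusted p = 0.0446).

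Of the 10 inhibitors and Notch effectors, 7 were lower in KO at EB8 (12.5% of all tested genes) and 0 were higher (10.4%), with a median of -1.70. The Notch effector Hes5 was at 811 and 1101 normalised counts in the WT EB8 libraries against 14.8 and 5.3 in those of KO (-6.57, limma adjusted p = 0.000239). Hes3 differed by -5.20 and Heyl by -3.47. Hes5 and Heyl averaged under 10 outside WT EB8, so their differences at EB8 are tied to their being tested. Of the Id genes, whose products sequester E proteins, Id2 (-1.62) and Id4 (-2.23) were lower, while Id1 was at -0.27 (limma adjusted p = 0.807) and Id3 at -1.78 (limma adjusted p = 0.0541). At EB4 Id4 was the only one of the 10 that passed, higher in KO, where 2.75% of all genes were called higher.

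Known targets of neurogenins and Neurod genes were counted next. Of 13 tested, 10 were lower in KO at EB8 and 1 was higher, against 12.5% and 10.4% of all tested genes, with a median of -3.46. At ES, EB4 and EB5 0 passed in limma and in edgeR, with 3, 2 and 2 under an unadjusted p of 0.05, and DESeq2 called 1, 1 and 2. Myt1, a zinc finger factor, was at 1414 and 1883 normalised counts in the WT EB8 libraries against 19 and 8.5 in those of KO (-6.89, limma adjusted p = 0.000156). Ebf2 differed by -5.12, Insm1, a factor of neuroendocrine differentiation, by -4.97, and Srrm4, a neuronal splicing regulator, by -4.65. The gene that was higher was Eomes (4.51, limma adjusted p = 0.000127, named after its value was seen), a T-box factor that also marks the primitive streak. It was at 471 and 362 in the KO EB8 libraries against 23.1 and 12.7 in those of WT, and at 1002 and 1064 in WT EB4. From EB5 to EB8, 8 of the 13 rose (5.82% of all tested genes) and 1, Eomes, fell in WT, while in KO 1, Dll1 (named after its value was seen), fell. The difference between the genotypes' steps was called for 6 of the 13, all lower in KO, where 0.682% of all tested genes were called lower. Myt1 and Ebf2 averaged under 10 outside WT EB8 and were tested only through that group. Their place in the counts of lower genes at EB8, of WT rises and of step differences is tied to their being tested.

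The genes of the Olig2 domain and of motor neurons gave 6 lower and 0 higher of 8 tested at EB8, against 12.5% lower and 10.4% higher of all tested genes. Nkx6-1, a ventral progenitor factor, differed by -3.83 (limma adjusted p = 0.018), Irx3, a factor of other spinal progenitors, by -3.51, the progenitor factor Pax6 by -3.29 and Mnx1, a motor neuron factor, by -3.10. Nkx6-1 and Lhx3, both in the count of lower genes, averaged under 10 outside WT EB8. Their differences at EB8 are tied to their being tested. Pax6 was already lower in KO at EB5 (-3.25, limma adjusted p = 0.0133), at 2855 and 6135 normalised counts in the WT libraries against 696 and 278. Summed over the 9 genes, the range was 171 to 472 normalised counts in WT ES cells, where the Olig means were highest in WT, and 8291 to 9912 in WT EB8. Most of the WT EB8 sum was Pax6, at 5447 and 5317, and Irx3, at 3620 and 2253. The motor neuron factor Mnx1 was at 554.5 and 297.5 there, so the sum is not a level of motor neuron genes.

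Genes tied to the lineages of the other members were mixed. Of the 6 oligodendrocyte genes tested 1, Sox10, passed at EB8, higher in KO (3.08, limma adjusted p = 0.0122), where 10.4% of all genes were called higher. Cspg4 was at 0.69 and Mog at 0.59. Sox10 is also a neural crest factor. In the Atoh1 list, 3 of 6 genes were tested and Gfi1 was lower in KO at EB8 (-5.11, limma adjusted p = 0.0019), with Pou4f1 at 0.55. Of the endocrine genes of the Neurog3 lineage only Chga was tested, and its level in KO was above WT at EB4 (1.16, limma adjusted p = 0.0297) and at EB5 (1.74, limma adjusted p = 0.00999), with a difference of -0.53 at EB8 (limma adjusted p = 0.177).

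**Figure D5:**
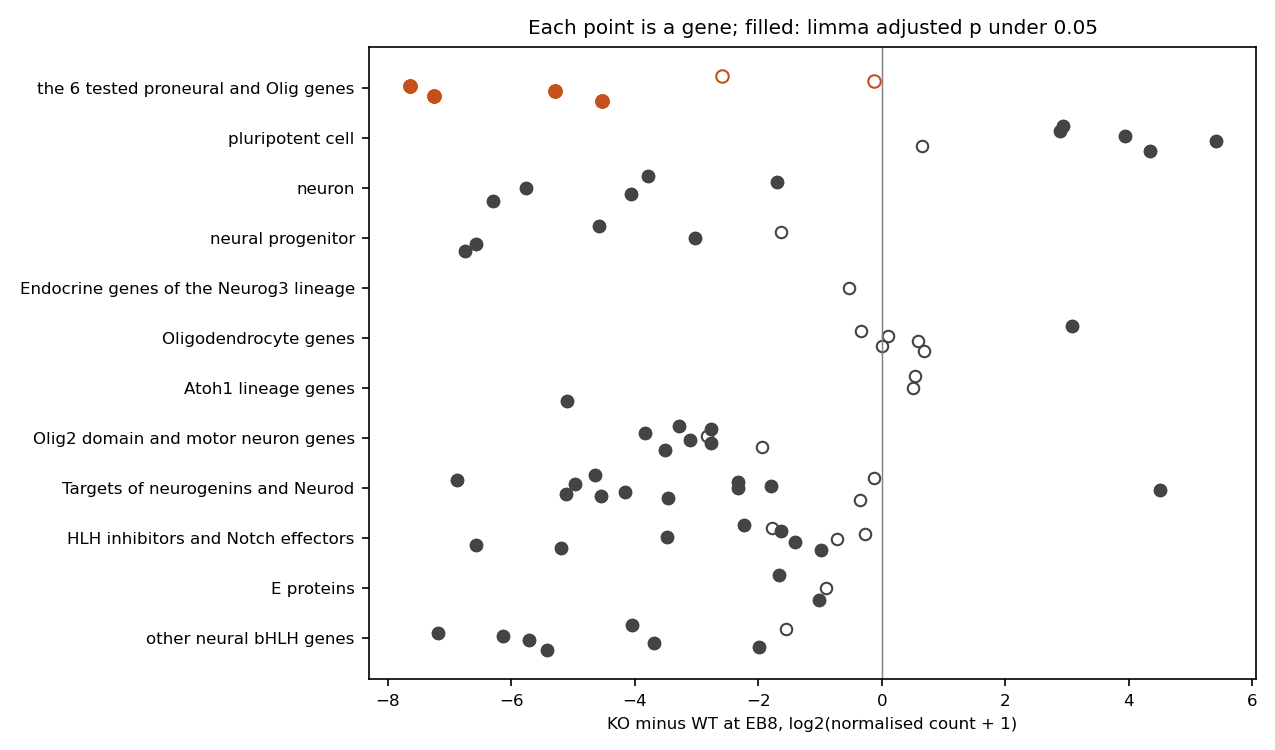
Each point is a tested gene, placed by KO minus WT at EB8 in log2 units and by its list on the y axis, and filled points passed a limma adjusted p of 0.05. The other neural bHLH genes, the targets and the neuron markers lie mostly between -8 and -1, the oligodendrocyte genes near 0 apart from Sox10, and the pluripotency markers above 0.

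Markers of cell state moved with the same comparison. At EB8 12.5% of all tested genes were lower in KO and 10.4% higher, and the counts of the lists stand beside these shares. Of the neuron markers, 5 of 5 tested were lower in KO at EB8, with summed levels of 15620.5 to 19817 normalised counts in WT against 1231 to 1474 in KO. The same sum was 7989 to 9006 in WT ES cells and 9924 to 10300 in KO ES cells, so it is not a level of neurons alone. Earlier stages were mixed for this list. At EB4 the KO minus WT difference of Tubb3 passed at 1.46 (limma adjusted p = 0.0127). At EB5 those of Tubb3 (1.60, limma adjusted p = 0.0128) and Elavl4 (-2.03, limma adjusted p = 0.0208) passed. Of the neural progenitor markers 4 of 5 were lower in KO at EB8, with 22299.9 to 24864 in WT against 4152 to 4548 in KO. Of the pluripotency markers, 5 of 6 were higher in KO at EB8, with 18934 to 20801 normalised counts in KO and 1283 to 1520.4 in WT. Their sum was 59912.5 to 81408 in KO and 22952 to 43140 in WT at EB4. At EB5 it was 26535 to 44906 in KO and 6932 to 10508 in WT. The part of these markers in the Olig differences at EB4 and EB5 was not tested. No marker of these 3 lists was at 0 in a group. Of the endoderm markers 2 of 4 were lower at EB8. Of the mesoderm markers 0 of 3 passed, with 0 under an unadjusted p of 0.05 and 0 called by edgeR and DESeq2, and of the feeder fibroblast markers 0 of 6 passed, with 1 under an unadjusted p of 0.05, 0 called by edgeR and 1 by DESeq2. Their part in the differences of the proneural genes was not tested.

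In ES cells, where the Olig means were highest, the feeder fibroblast markers summed to 1032 to 2649 normalised counts in WT against 209 to 493 in KO, and 0 of 6 passed in limma, with 3 under an unadjusted p of 0.05, 0 called by edgeR and 3 by DESeq2. The oligodendrocyte genes summed to 315 to 787 in WT ES and 320 to 335 in KO ES, below their sums at EB8 (1267 to 1719.8 over both genotypes). The neural progenitor markers were lower in ES cells (2262 to 7462 over both genotypes) than in WT EB8. Their part in the Olig levels was not tested.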

How the data were processed

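Polyadenylated RNA from 16 libraries was sequenced as single reads of 54 bases. According to the labels and to the study's methods, reads were called with CASAVA 1.7 or 1.8, aligned to mm9 with TopHat2 2.0.10 and counted per gene with HTSeq 0.5.4p3. The strand setting and the annotation release are not given in the sources used here. The deposited signal values are gene counts that the authors divided by DESeq2 1.0.19 size factors. The values of a library were whole multiples of a single step for 100.0% of genes (tolerance 0.01 read), which gave the reads back.

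The members and all lists of other genes were chosen with earlier results of these data known. The 16124 of 27807 genes that averaged at least 10 normalised counts over the libraries were tested with limma 3.58.1 in R 4.3.3, by its moderated test with trend on log2(normalised count + 1), with 8 group means over 16 libraries (residual df 8, prior df 4.27) and Benjamini-Hochberg adjustment over all genes tested. The script was tested on simulated data. Differences are between means of log2(normalised count + 1), not ratios of group means, and for low values they depend on the pseudocount and on single libraries. Alternatives were pseudocounts of 0.1 and 5, no filter, upper-quartile rescaling, a replicate block (across all groups, or for the steps within each genotype, chosen after seeing the data), the compared groups alone, each library left out, and edgeR 4.0.16 (quasi-likelihood) and DESeq2 1.42.0 on the recovered reads, with TMM factors and DESeq2 size factors. At EB8 these called 3546 and 4626 genes, against 3697 in limma. Adjusted p-values that DESeq2 left empty (313 or 626 genes in some comparisons) stayed empty, and no member was among them. Other steps used Python 3.11.15, pandas 2.3.3, scipy 1.17.1 and matplotlib 3.10.9.

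Groups are those of the labels. The labels do not say which libraries share a line, though same-numbered libraries of a genotype deviated together at the embryoid body stages, so p-values measure the spread between these libraries, which may be technical in part. Libraries held 22442118 to 40711826 reads, and intervals and floors (3 reads) cover counting error only. Named genes were the 8 members, at most 4 genes of each list by the size of the EB8 difference (2 where under 6 were tested), the E protein and Id genes, and the 3 genes most like each tested member. Ptf1a, Lhx3, Tubb3 and Elavl4 are named only to give the limits of the counts of their lists. Of the table's identifiers, 27603 matched the GENCODE annotation and 204 did not. RefSeq promoters matched 7 members (8 entries), and Olig1 is named only. A promoter window was shown only where it lay before every annotated start of its gene. The listed genes Neurod6, Ferd3l, Myrf, Pax4, Ins1, Gcg, Sox1 and Map2 were not analysed here. Some single-gene results that the naming rule would give are not reported here.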

Additional observations from a re-analysis of the deposited data

Results flagged for a closer look

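For 2 of the 6 tested genes the step from EB5 to EB8 differed between the genotypes by the interaction term in limma, where 0.682% of all tested genes were called lower. Neurog2 had a KO step minus WT step of -7.89 on the log2 scale (limma adjusted p = 0.0258). It was tested only because of its WT EB8 values, so this difference is tied to its being tested. Neurod1 had -4.48 (limma adjusted p = 0.0309). The WT step was 8.57 for Neurog2 and 3.90 for Neurod1, and the KO step was 0.68 and -0.58. With a library left out the difference between the steps ranged from -9.35 to -6.42 for Neurog2 and from -4.90 to -4.07 for Neurod1. Both calls depended on single libraries, as given above. Groups of 2 libraries were too small for a test of outlying samples.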

How the results depend on the processing

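Over the alternatives of the 60 tested values of members (6 genes in 10 comparisons), 692 kept their direction and their side of the threshold, 17 passed it only in the alternative, 22 no longer passed it and 49 turned in direction. Of the 6 tested genes, KO against WT at EB8 gave 4 called whichever library was left out and 5 with the compared groups alone (Olig2), and the WT step from EB5 to EB8 gave 4 whichever library was left out, 3 with a pseudocount of 0.1 and 5 in DESeq2 (Olig2). At EB4 KO against WT gave 1 called with a pseudocount of 0.1 and with the replicate block (Neurog1), and 0 to 2 when a library was left out. The WT step from EB4 to EB5 gave 0 with a pseudocount of 5 and in edgeR, and 0 to 2 without a library, and the KO step gave 1 with the replicate block, across all groups or within genotype, and in DESeq2. The genotype difference from EB5 to EB8 gave 1 with a pseudocount of 0.1, 4 with a pseudocount of 5, 3 with either replicate block, in edgeR and in DESeq2, and 0 to 1 without a library. Where a group was left with 1 library, that library was assumed to vary like those of the other groups.

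The values that turned in direction were short of the threshold as reported, and 1 of them passed it after turning, the WT step of Olig2 from EB4 to EB5 without WT EB4 replicate 2. Olig1 at EB8 was 0.012 with upper-quartile rescaling. The WT step from EB4 to EB5 was 0.57 for Olig2 with a pseudocount of 0.1, and -0.059 in edgeR and -0.080 in DESeq2 for Neurog2. The KO step from EB5 to EB8 was 0.13 for Neurod4 in edgeR and 0.13 in DESeq2. The genotype difference from EB4 to EB5 was 1.43 in both tools for Olig1 and 2.44 in both for Olig2. With a library left out, KO against WT in ES cells ranged from -1.34 to 0.72 for Neurog1, -0.10 to 0.96 for Neurog2, -1.84 to 0.33 for Neurod1, -3.29 to 0 for Neurod4, -0.16 to 1.04 for Olig1 and -0.59 to 1.00 for Olig2. At EB4 it ranged from -0.45 to 0.19 for Neurod1 and -0.53 to 1.30 for Neurod4, at EB5 from -0.84 to 2.09 for Neurog2 and -2.04 to 1.26 for Neurod4, and at EB8 from -1.29 to 1.03 for Olig1. The WT step from EB4 to EB5 ranged from -0.83 to 0.85 for Neurog2, -0.66 to 0.17 for Neurod1, -4.57 to 1.23 for Olig1 and -5.38 to 3.47 for Olig2, and the KO step from -2.52 to 0.41 for Neurog2. The KO step from EB5 to EB8 ranged from -0.21 to 1.72 for Neurog1, -0.78 to 2.15 for Neurog2 and -1.29 to 1.06 for Neurod4. The genotype difference from EB4 to EB5 ranged from -2.53 to 0.40 for Neurog2, -2.43 to 0.87 for Neurod4, -2.98 to 2.82 for Olig1 and -5.42 to 3.44 for Olig2. The cause was not tested.

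Counts over all genes moved more. KO against WT gave 0 genes in ES cells (0 to 121 without a library, 0 to 469 under the other alternatives), 986 at EB4 (0 to 753, 0 to 2077), 700 at EB5 (0 to 525, 72 to 1719) and 3697 at EB8 (1907 to 2408, 3064 to 4626). The WT step from EB4 to EB5 gave 601 (197 to 536, 509 to 1094) and the KO step 405 (132 to 204, 359 to 1015). From EB5 to EB8 these were 1683 (556 to 1203, 1522 to 2511) and 119 (4 to 47, 76 to 661), and the genotype difference gave 126 (13 to 74, 92 to 488). With upper-quartile rescaling the median of all genes at EB8 was 0.11 in place of -0.03 on the log2 scale, and 2278 genes were higher and 1615 lower in place of 1677 and 2020.

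Same-numbered libraries were not treated as pairs in the reported fits, since the labels do not tie a number to a line. The correlation of their deviations was 0.33, -0.06, -0.21 and -0.13 between genotypes at ES, EB4, EB5 and EB8. Within a genotype it was 0.61 between EB4 and EB5 and 0.57 between EB5 and EB8 in WT, and 0.42 and 0.23 in KO. These were above the values between genotypes, except that 0.23 was below the 0.33 at ES. KO replicate 1 stood above the other libraries on chromosome 11 at all 4 stages (median log2 deviation 0.18 to 0.28, the others -0.13 to 0.03), and WT replicate 1 on chromosome 8 at the 3 embryoid body stages (0.40 to 0.41, the others -0.16 to 0.03). KO replicate 2 at all 4 stages and WT ES replicate 2 stood above the others on chromosome X (0.35 to 0.54, the others -0.25 to -0.16). Xist was at 232 to 3001 normalised counts in KO replicate 2 and 38.2 to 132 in KO replicate 1. With the replicate block Neurog1 passed in KO against WT at EB4 (limma adjusted p = 0.024), in the KO step from EB4 to EB5 (limma adjusted p = 0.0264) and in the genotype difference from EB5 to EB8 (limma adjusted p = 0.0106). With a block for the number within each genotype, chosen after seeing the data, the KO step of Neurog1 from EB4 to EB5 (limma adjusted p = 0.00812) and its genotype difference from EB5 to EB8 (limma adjusted p = 0.00339) passed, and no other step of a member changed its call. With the numbers crossed, an alternative chosen after seeing the data, 0 members were called at EB5 and 4 at EB8. At 1 to 3 reads in a group, as for Neurog1 and Neurod4 in WT EB4, depth limits what a difference can show.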
